A study of Mus musculus with 32 samples.

Results

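The fatty acid binding protein family is represented here by Fabp1, Fabp2, Fabp4, Fabp5 and Fabp7, 5 of the 8251 genes that the array measured through a probe set annotated to 1 gene. Every probe set annotated to 1 of these genes alone was taken, which gave 6 of the 12422 probe sets other than array controls. Fabp1 (gene ID 14080) had 2 probe sets, called bright and dim here. Fabp2 (14079), Fabp4 (11770), Fabp5 (16592) and Fabp7 (12140) had 1 each. The members were chosen by name and not by a rule on their values, but earlier results of these data were known.

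Fatty acid binding proteins are small cytosolic proteins that hold long-chain fatty acids and related lipids in a barrel-shaped pocket. They carry these lipids between membranes and organelles, toward oxidation, storage or the nucleus, where they can hand ligands to the peroxisome proliferator-activated receptors (PPARs). Each member is named for the tissue in which it is abundant. Fabp1 is the liver form and one of the most abundant proteins of the hepatocyte, Fabp2 the intestinal form, Fabp4 the adipocyte form, Fabp5 the epidermal form and Fabp7 the brain form. Fabp4 and Fabp5 are also made by macrophages and capillary endothelium, and Fabp7 has been described in Kupffer cells, the resident macrophages of the liver. When a surgeon cuts away lobes of the liver (partial hepatectomy), the tissue left behind takes up fatty acids and stores them as lipid droplets before its hepatocytes divide.

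RNA was taken from 32 livers of male C57BL/6 mice aged 3 months, all homozygous for a floxed allele of Rps6, the gene of a protein of the small ribosomal subunit. Some carried the mx-cre transgene and are called Cre plus, and the others lacked it and are called Cre minus. Interferon switches the MX promoter on, so Cre is made wherever interferon acts, in hepatocytes and in other cells of the liver and body. Polyinosinic-polycytidylic acid, a double-stranded RNA that induces interferon, was injected to trigger the deletion, per the submitters' design text. That text does not say whether Cre minus mice were injected or how long before surgery. Livers were labelled 0, 20, 30 or 40 h after partial hepatectomy, with 4 livers a group. The exceptions were the Cre plus groups at 30 h (3 livers) and 40 h (5 livers). The sources used here name no sham-operated livers, and they do not say that each liver came from its own mouse, so p-values measure only the spread between these samples. The labels also place each array in batch PHX2 or PHX3, and both batches hold livers of all 8 groups.

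Rps6 itself ran from 6.24 to 7.69 in the 16 Cre plus livers and from 10.99 to 11.82 in the 16 Cre minus livers (log2 expression values), without overlap. That probe set also carries the name of a pseudogene, Rps6-ps4. The mean correlation of an array with the others of its group ran from 0.943 to 0.991. It was under 0.95 in 3 livers, which were Cre minus 30 h C, Cre plus 30 h A and Cre plus 40 h D. Values without these livers are given beside the larger member differences that they moved. The 3′ minus 5′ difference of the Actb control probe sets, a sign of RNA integrity, ran from 0.74 to 1.25. The 10 hepatocyte markers were high, with a mean that ran from 11.78 to 12.08 over the arrays.

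The bases just before the start of transcription are shown for Fabp1, Fabp2 and Fabp7, the members for which they were available. They come from RefSeq on GRCm38.p6, whose table held 3 of the 5 members, and each window is the 250 bases before the start on the plus strand. Fabp1 is at chr6:71199629-71199878, Fabp2 at chr3:122894822-122895071 and Fabp7 at chr10:57784673-57784922. Capitals mark any match, on either strand, to AGGTCA (the core of nuclear receptor sites), GTTAAT (bound by the liver factor HNF1), GAANNTTC (the core of a heat shock element), TATAAA or CACGTG (an E-box).
Fabp1: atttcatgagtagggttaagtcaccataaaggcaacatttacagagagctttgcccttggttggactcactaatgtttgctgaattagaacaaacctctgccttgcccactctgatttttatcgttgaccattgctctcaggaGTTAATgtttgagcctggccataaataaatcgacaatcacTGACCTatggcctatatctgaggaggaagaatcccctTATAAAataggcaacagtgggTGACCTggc
Fabp2: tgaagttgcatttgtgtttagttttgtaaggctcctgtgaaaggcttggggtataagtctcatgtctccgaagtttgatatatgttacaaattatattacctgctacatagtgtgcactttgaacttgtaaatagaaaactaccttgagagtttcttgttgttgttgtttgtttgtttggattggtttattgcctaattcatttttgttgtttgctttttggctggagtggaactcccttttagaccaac
Fabp7: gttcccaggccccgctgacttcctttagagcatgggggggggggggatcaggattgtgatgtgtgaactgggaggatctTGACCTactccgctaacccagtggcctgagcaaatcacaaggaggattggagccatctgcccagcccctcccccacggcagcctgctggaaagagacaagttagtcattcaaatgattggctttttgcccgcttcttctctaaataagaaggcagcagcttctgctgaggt
The Fabp1 window held AGGTCA on the minus strand at -67 to -62 and at -9 to -4, counted from the start. It also held GTTAAT at -107 to -102 and TATAAA at -30 to -25. The Fabp7 window held AGGTCA on the minus strand at -171 to -166 and none of the other motifs, and the Fabp2 window held none of the 5. No motif overlapped another. Among 32851 RefSeq promoter windows of the same length, AGGTCA was found in 14.02%, GTTAAT in 6.43%, GAANNTTC in 6.69%, TATAAA in 12.37% and CACGTG in 6.02%. An exact AGGTCA direct repeat spaced by 1 base, the layout that PPARs bind, was in 0.033% of the windows and in none of these 3. Repeats with a changed base were not searched for, so none being found does not mean that the layout is absent. In Fabp1 the match at -67 to -62 is followed, after 1 base, by tggcct, which differs from TGACCT by 1 base. A match is a description of the letters and not a measured site.

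Values were the authors' log2 expression values, and a difference of 1 is a 2-fold change. Each was tested with limma over 9249 probe sets that passed a filter on low values, and was called at a Benjamini-Hochberg adjusted p under 0.05. All 6 member probe sets passed the filter. Over 13 comparisons this gave 78 tests of members, of which 4 were called (5.13%), near the 3.88% called over all probe sets in the same comparisons. The Cre plus livers had less Fabp7 at 20 h and less Fabp1 at 40 h than the Cre minus livers. Fabp7 rose from 0 to 20 h in Cre minus livers, and the dim probe set of Fabp1 fell from 0 to 40 h in Cre plus livers. No test of Fabp2, Fabp4 or Fabp5 was called. The genotype differences were negative in 19 of 24 tests, but only 2 of the 24 were called. These tests share livers, and 2 of the 6 probe sets are of Fabp1. Over all probe sets the median genotype difference at each time lay between -0.007 and 0.003.

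**Figure D1:**
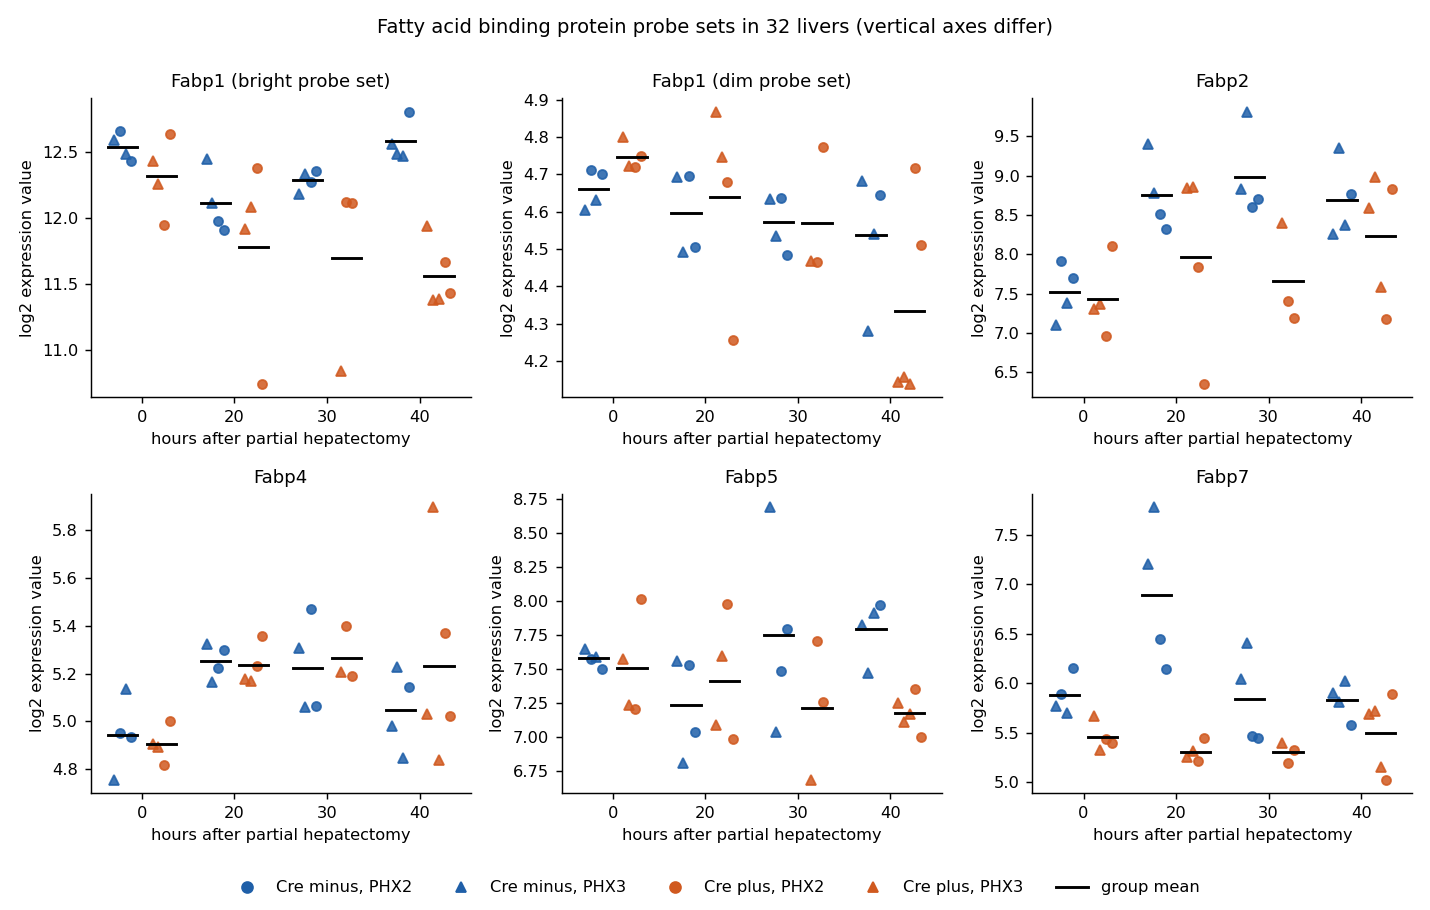
Log2 expression value of each member probe set (vertical axes, which differ between panels) in each of the 32 livers, against the hours after partial hepatectomy. Colour gives the genotype, the symbol gives the batch and the bar is the group mean. The bright Fabp1 probe set was lower in all 5 Cre plus livers at 40 h than in the Cre minus livers, and Fabp7 was highest in the Cre minus livers at 20 h.

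Fabp1, the carrier of fatty acids in the hepatocyte, was at the top of the array in every liver: its bright probe set lay between the 97.9th and the 99.8th percentile of its own array. At 40 h the Cre minus livers A to D read 12.57, 12.49, 12.47 and 12.81. The Cre plus livers A to E read 11.94, 11.38, 11.39, 11.67 and 11.43, so that every Cre plus liver lay below every Cre minus liver. The difference was -1.03 ± 0.25 (SE; n = 5 and 4), 2.04-fold lower in Cre plus, with an adjusted p of 0.0111 from limma. It was the only probe set called among the 6 of the family in a comparison where 5.35% of all probe sets were called. Without the 3 poorly correlated arrays the difference was -1.05 (adjusted p = 0.00421). It was -1.26 within PHX2, with 1 Cre minus liver, and -0.94 within PHX3. It kept its call when each of the 9 livers was left out in turn, with adjusted p from 0.00785 to 0.0418.

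Before 40 h the genotypes were closer. Cre minus livers read 12.59, 12.66, 12.49 and 12.43 at 0 h, and Cre plus livers read 12.44, 12.26, 11.95 and 12.64, with overlap and a difference of -0.22 ± 0.26. At 20 h the Cre minus livers read 12.45, 12.12, 11.98 and 11.91. The Cre plus livers at 20 h read 11.92, 12.09, 12.38 and 10.74, with liver D far below the other 3. The difference there was -0.33 ± 0.26 (adjusted p = 0.999), and it was 0.04 without that liver. At 30 h the Cre minus livers ran from 12.18 to 12.36, and the 3 Cre plus livers read 10.84, 12.13 and 12.12, where the lowest is liver A, the only one of PHX3. The difference of -0.60 ± 0.28 was not called (adjusted p = 0.413) and came to -0.10 without the 3 poorly correlated arrays, of which liver A is one. The genotypes did not overlap at 30 h, but the gap between them was small beside the distance to liver A.

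Against 0 h, Fabp1 in Cre plus livers was lower by -0.54 ± 0.26 at 20 h, -0.63 ± 0.28 at 30 h and -0.76 ± 0.25 at 40 h. The first was -0.17 without Cre plus 20 h D and the second -0.16 without Cre plus 30 h A (-0.15 without the 3 poorly correlated arrays), so that 1 liver carried most of each. None passed the threshold, and the last came nearest with an adjusted p of 0.0505. All 5 Cre plus livers at 40 h lay below all 4 at 0 h. That test passed without the 3 poorly correlated arrays (-0.81, adjusted p = 0.0206), and without Cre plus 0 h C or Cre plus 40 h A. In Cre minus livers the differences from 0 h were -0.43 ± 0.26, -0.26 ± 0.26 and 0.05 ± 0.26, none of them called. The interaction at 40 h, the genotype difference at 40 h minus that at 0 h, was -0.81 ± 0.36, with an unadjusted p of 0.0326 and an adjusted p of 0.735. A change of the genotype difference over time was therefore not shown. Of 10 hepatocyte markers, Ttr was called lower in Cre plus at 40 h (-1.24 ± 0.33, adjusted p = 0.0227, with overlap) and none was called higher. The median difference of those markers at 40 h was -0.09, where 5.35% of all probe sets were called. Their mean level ran from 11.78 to 12.03 in Cre plus and from 11.87 to 12.08 in Cre minus, and their part in the Fabp1 result was not tested. In bulk liver RNA, fewer cells of a type and less RNA per cell cannot be told apart.

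The other Fabp1 probe set was dim. It lay between the 20.2th and the 32.7th percentile of its array and was above the 30th percentile, the filter's limit, on 7 of 32 arrays. Its values ran from 4.14 to 4.87. It fell from 0 to 40 h in Cre plus livers by 0.41 on the log2 scale (SE 0.12, adjusted p = 0.0263), from 4.80, 4.72, 4.72 and 4.75 to 4.14, 4.16, 4.14, 4.72 and 4.51. The groups did not overlap, but livers A, B and C at 40 h, all of PHX3, stood apart from D and E of PHX2. The difference was -0.62 within PHX3 and -0.12 within PHX2. The call was lost when any of 6 of the 9 livers was left out, which were Cre plus 0 h A, B and D and Cre plus 40 h A, B and C, with adjusted p up to 0.0883. Without the 3 poorly correlated arrays, which removes liver D at 40 h, the difference was -0.51 (adjusted p = 0.00526). At 40 h its genotype difference was -0.21 ± 0.12 (adjusted p = 0.369). Both probe sets were thus lower in Cre plus at 40 h, but the dim one did not pass the test there. Levels of different probe sets are not compared, since each binds its target with its own strength.

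Fabp7, the brain form, gave the largest genotype difference of the family. At 20 h the Cre minus livers A to D read 7.20, 7.78, 6.45 and 6.14. The Cre plus livers read 5.25, 5.32, 5.22 and 5.45. All 4 Cre minus livers were above all 4 Cre plus livers, and among the Cre minus livers the 2 of PHX3, A and B, were the highest of the 32. The difference was -1.59 ± 0.23 (n = 4 and 4), 3.00-fold lower in Cre plus, with an adjusted p of 0.000664. It was the only member called among 6, where 0.292% of all probe sets were called. It was -0.97 within PHX2 and -2.21 within PHX3, and stayed called when any of the 8 livers was left out (adjusted p up to 0.00503). Fitted on the 20 h arrays alone, the same difference had an adjusted p of 0.171.

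At the other times Fabp7 was also lower in Cre plus, without a call. At 0 h the Cre minus livers read 5.77, 5.89, 5.69 and 6.16 and the Cre plus livers 5.67, 5.33, 5.43 and 5.39. The groups did not overlap, with a difference of -0.42 ± 0.23 (adjusted p = 1), although the nearest livers were 5.69 and 5.67. At 30 h the Cre minus livers read 6.05, 6.41, 5.46 and 5.45, with those of PHX3 again the higher, and the Cre plus livers read 5.39, 5.19 and 5.33. The difference of -0.49 ± 0.25 had an adjusted p of 0.457. At 40 h the genotypes overlapped, from 5.58 to 6.02 in Cre minus and from 5.02 to 5.89 in Cre plus. Over all times the Cre plus livers stayed between 5.02 and 5.89, and the median of the 16 Cre minus livers was 5.96. Fabp7 lay between percentiles 34.1 and 80.7 over the 32 arrays. In Cre plus at 20 h it lay between 36.6 and 41.4, low on the array, which limits how far the fold change can be read.

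In Cre minus livers Fabp7 rose from 0 to 20 h by 1.02 ± 0.23, 2.02-fold, with an adjusted p of 0.00826. This was the only call among the 6 members, where 7.37% of all probe sets were called. The rise was 1.76 within PHX3 and 0.27 within PHX2, and liver D at 20 h (6.14) lay just under the highest 0 h liver (6.16). It kept its call without any of the 8 livers (adjusted p up to 0.0448). By 30 and 40 h the differences from 0 h were -0.04 and -0.12. In Cre plus livers they were -0.15, -0.11 and 0.01 at 20, 30 and 40 h. The interaction at 20 h was -1.16 ± 0.32, with an unadjusted p of 0.00128 and an adjusted p of 1. It was -0.35 within PHX2 and -1.98 within PHX3.

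**Figure D2:**
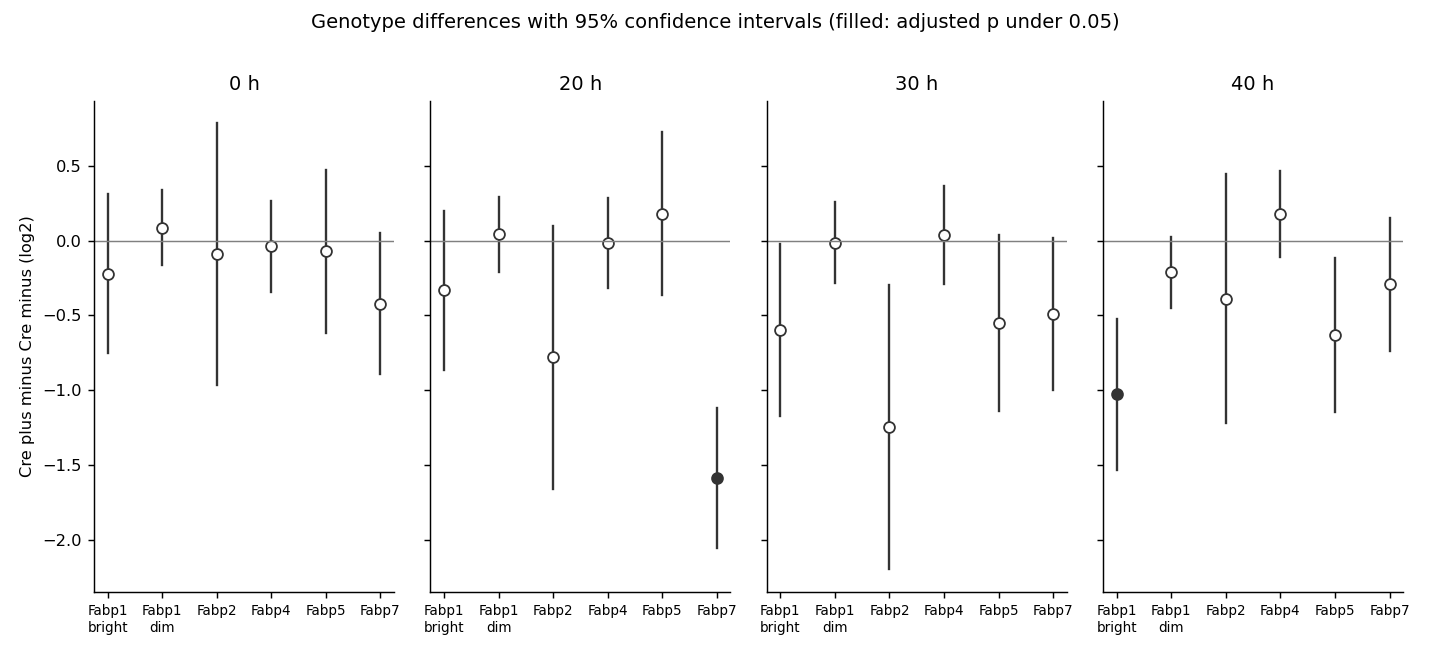
Genotype difference of each member probe set at each time (Cre plus minus Cre minus, log2), with its 95% confidence interval from limma. Filled points had an adjusted p under 0.05: Fabp7 at 20 h (-1.59) and bright Fabp1 at 40 h (-1.03). The intervals of Fabp2 are the widest and those of Fabp4 and of the dim Fabp1 probe set are narrow.

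Markers of Kupffer cells and macrophages were lower in the Cre plus livers as well. At 20 h, 5 of 13 markers were called lower and none higher, where 0.292% of all probe sets were called. Their median difference was -0.70, beside 0.002 over all probe sets. The largest were Cd5l (-1.87 ± 0.33), a secreted macrophage protein, and Clec4f (-1.51 ± 0.23), a lectin particular to Kupffer cells. The complement subunits C1qb (-1.12 ± 0.19) and C1qc (-1.01 ± 0.16) followed. At 20 h the mean of the 13 markers read 7.83, 7.96, 7.69 and 7.58 in the Cre minus livers A to D. It read 6.67, 6.91, 7.21 and 6.86 in the Cre plus livers A to D. Livers B and A were thus the highest of the Cre minus group, as for Fabp7. The median marker difference between genotypes at 20 h was -0.565 within PHX2 and -1.113 within PHX3. At 0, 30 and 40 h the median differences were -0.38, -0.38 and -0.55, with 0, 2 and 6 of 13 markers called lower. The shares called over all probe sets were 0.0649, 0.281 and 5.35%. From 0 to 20 h in Cre minus livers, where Fabp7 rose, the median marker difference was -0.17. The differences ran from -0.83 to 0.64, and 2 of the 13 were positive. Among them 1 was called lower (Mpeg1) and none higher, where 7.37% of all probe sets were called. The part of Kupffer cells and macrophages in the Fabp7 difference was not tested. Of the glial markers, S100b and Mbp did not pass the filter, and the other two together ran from 6.14 to 6.62 with no call in any comparison.

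The genes most like Fabp7 over the 32 arrays, with the batch effect subtracted, were Hsph1 (Pearson r = 0.77), Hspa1b (0.72) and Dnajb1 (0.70), chaperones and a co-chaperone of the heat shock response. Within groups the correlations were 0.68, 0.50 and 0.59. At 20 h Hsph1 read 8.88, 9.47, 6.79 and 6.70 in the Cre minus livers A to D and 6.21, 6.54, 5.69 and 6.78 in the Cre plus livers. Livers A and B of PHX3, the highest for Fabp7, were also the highest for Hsph1, while C and D lay close to the highest Cre plus liver. Hsph1 was picked for its correlation over these same livers, so this likeness partly follows from the choice. Hspa1b was highest in liver B (8.95), with 6.37, 6.64 and 6.03 in A, C and D and 4.85 to 5.92 in Cre plus. Dnajb1 read 7.94 in liver B and 6.69, 6.08 and 6.11 in A, C and D. The genotype differences at 20 h were -1.66 ± 0.47 for Hsph1, -1.45 ± 0.39 for Hspa1b and -0.62 ± 0.25 for Dnajb1. None of the 3 was called, with adjusted p of 0.23, 0.153 and 0.838. The GAANNTTC letters were not in the Fabp7 window shown above, but only 6.69% of all windows held them. Changed letters and bases outside the window were not searched, and heat shock control of Fabp7 was not tested.

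**Figure D3:**
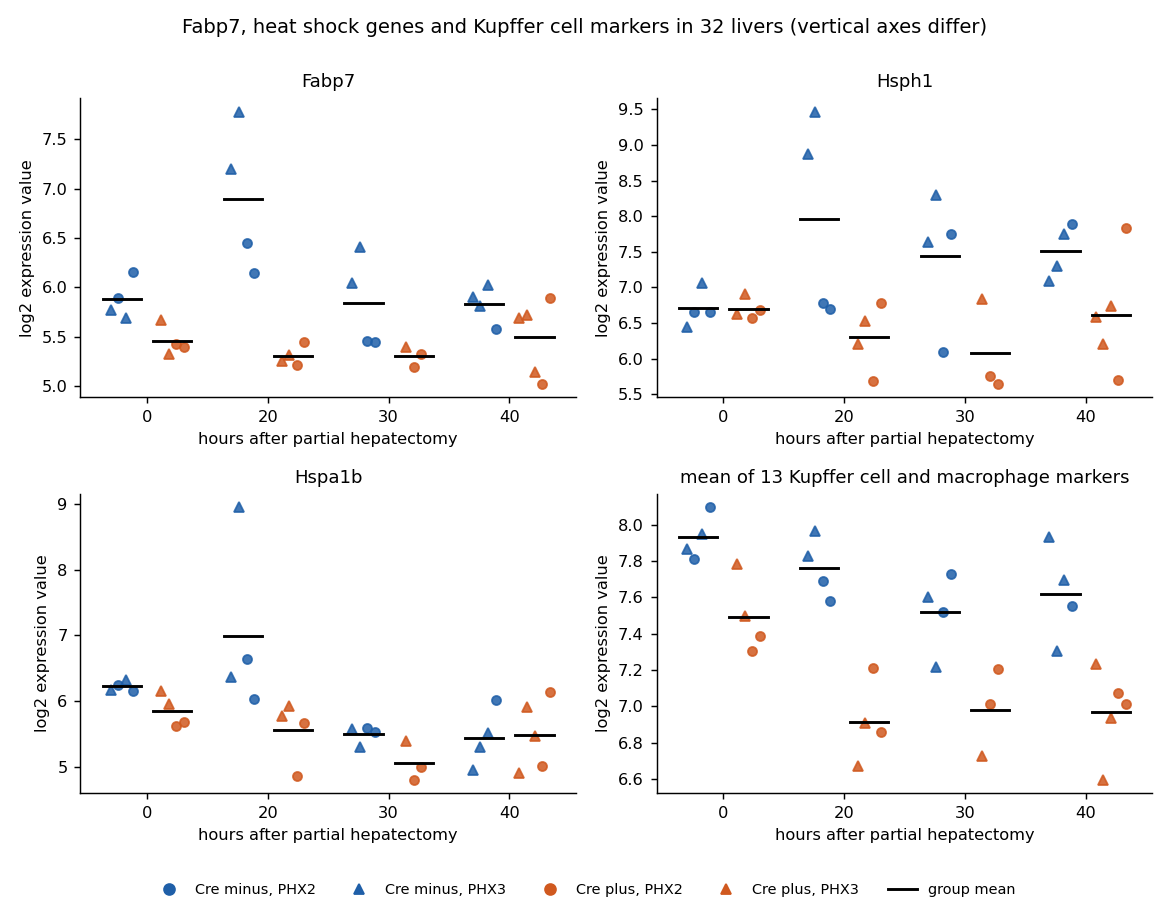
Log2 values of Fabp7, of the heat shock genes Hsph1 and Hspa1b and the mean of 13 Kupffer cell and macrophage markers in each liver, against hours after partial hepatectomy. Colours, symbols and bars are as in the plot of the members by liver. The Cre minus livers A and B at 20 h (triangles) stand out for Fabp7 and Hsph1, and the group mean of the markers was lower in Cre plus at each time.

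Fabp2, the intestinal form, was well measured in these livers (57.2nd to 95.9th percentile) and had the widest spread of the family. At 0 h the Cre minus livers read 7.11, 7.92, 7.38 and 7.70. At 20 h they read 9.40, 8.78, 8.52 and 8.32. The 30 h livers read 8.83, 9.81, 8.60 and 8.70. At 40 h they read 8.26, 9.35, 8.38 and 8.77. Every Cre minus liver after surgery was thus above every Cre minus liver at 0 h. The differences from 0 h were 1.23 ± 0.43, 1.46 ± 0.43 and 1.05 ± 0.43 at 20, 30 and 40 h, or 2.34-fold, 2.75-fold and 2.07-fold. Their adjusted p were 0.0777, 0.0591 and 0.193, so that none was called. The 3 comparisons share their 0 h livers. At 30 h 3.14% of all probe sets were called, none of them a member, and 4.77% at 40 h, again without a member. Of the 6 members, 1 had an unadjusted p under 0.05 in each, which was Fabp2. The 30 h difference passed in 5 of 12 alternatives (adjusted p from 0.0115 to 0.0494), among them the fit to the Cre minus arrays alone (0.016). The rise at 30 h was 0.85 within PHX2 and 2.08 within PHX3.

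In Cre plus livers Fabp2 was more scattered. It read 7.31, 7.36, 6.96 and 8.11 at 0 h and 8.84, 8.85, 7.84 and 6.35 at 20 h, where livers A and B of PHX3 were high and D of PHX2 was the lowest of all 32. The 30 h livers read 8.39, 7.40 and 7.19. The 40 h livers read 8.59, 8.99, 7.58, 7.18 and 8.83. The groups after surgery overlapped the 0 h group at each time. The differences from 0 h were 0.54 ± 0.43, 0.30 ± 0.46 and 0.75 ± 0.41, none called. The first was 1.02 without liver D at 20 h. The second was 0.05 without Cre plus 30 h A and -0.01 without the 3 poorly correlated arrays. At 20 h the difference had opposite signs in the batches, -0.44 in PHX2 and 1.51 in PHX3. Between genotypes, the 30 h livers did not overlap and differed by -1.25 ± 0.46, 2.38-fold lower in Cre plus, with an unadjusted p of 0.0119 and an adjusted p of 0.267. Without the 3 poorly correlated arrays that difference was -1.64 (adjusted p = 0.0653). No member was called between genotypes at 30 h, where 0.281% of all probe sets were called and 2 members, bright Fabp1 and Fabp2, had an unadjusted p under 0.05. At 0, 20 and 40 h the Fabp2 differences were -0.09, -0.78 and -0.39, none called. The 20 h value was -0.30 without Cre plus 20 h D. The 40 h value was -0.17 without Cre plus 40 h C and -0.19 without the 3 poorly correlated arrays.

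**Figure D4:**
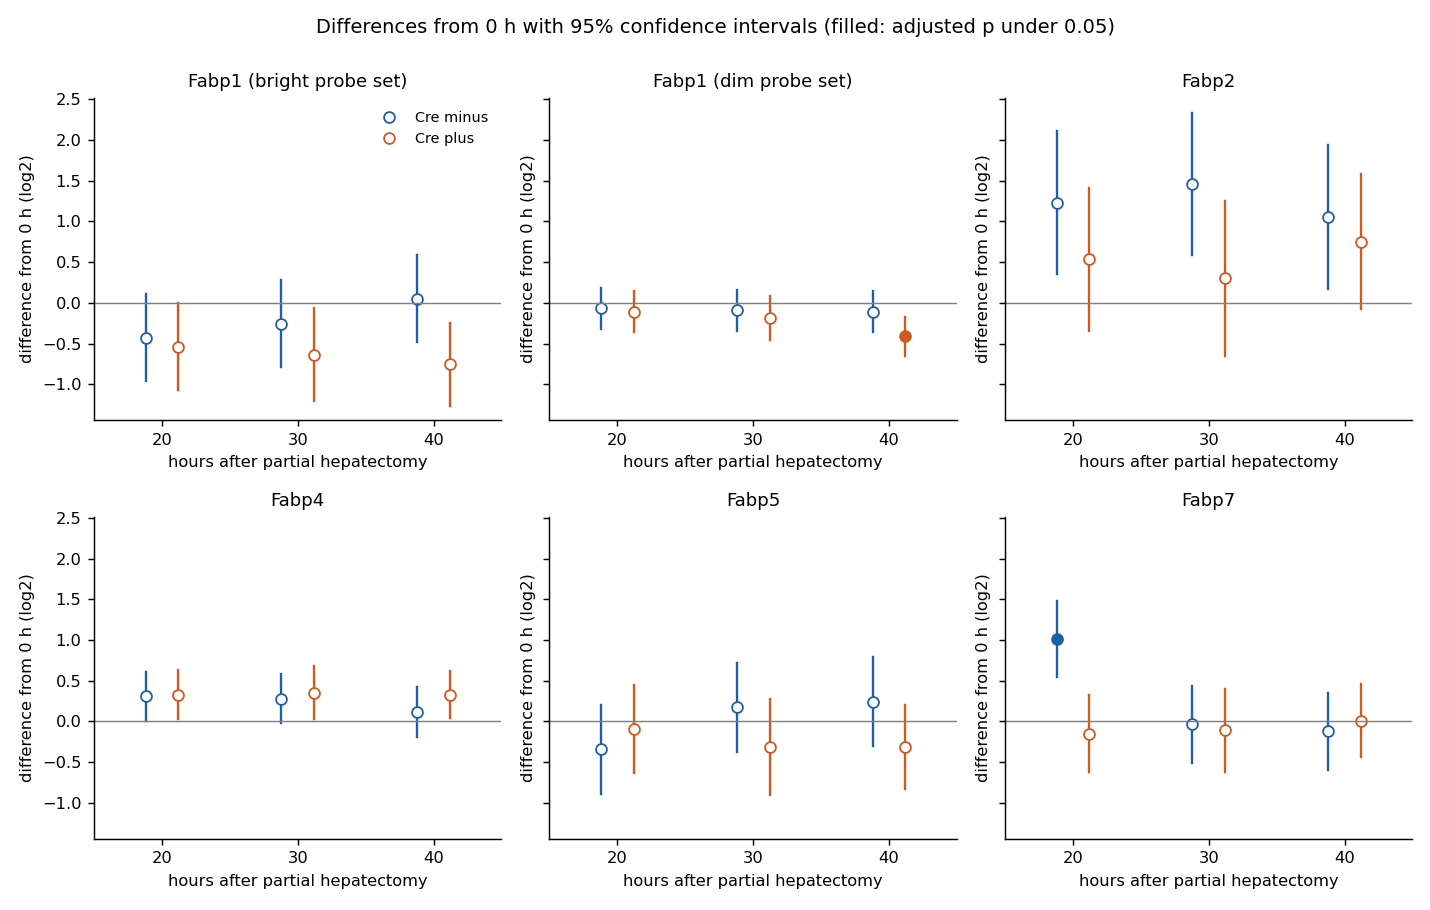
Difference of each member probe set from 0 h within each genotype (log2), with its 95% confidence interval from limma, at 20, 30 and 40 h. Filled points had an adjusted p under 0.05: Fabp7 at 20 h in Cre minus (1.02) and the dim Fabp1 probe set at 40 h in Cre plus (-0.41). The Cre minus differences of Fabp2 lay between 1.05 and 1.46, above those of Cre plus at each time, and no interaction was called.

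The genes most like Fabp2 were Cpt1a (r = 0.79), which brings fatty acids into the mitochondrion, and Hadhb (0.77) and Ech1 (0.77), both enzymes of beta-oxidation. Within groups the correlations were 0.69, 0.66 and 0.68. The Cre plus 20 h liver D, lowest for Fabp2, was also lowest for Cpt1a (9.03). Cpt1a was picked for its correlation over these same livers, so this is not separate support. In Cre minus livers Cpt1a was 0.72 ± 0.32, 0.81 ± 0.32 and 0.59 ± 0.33 above 0 h at 20, 30 and 40 h, and Ech1 was 0.44 ± 0.22, 0.55 ± 0.22 and 0.61 ± 0.22 above it. None of these differences of Cpt1a and Ech1 was called, as for Fabp2. Of the enterocyte markers, Vil1, Lct and Cdx2 did not pass the filter, and the 2 that did gave 1 call over time or between genotypes, Lgals4 at 30 h in Cre plus (0.51 ± 0.16). That comparison had 9.89% of all probe sets called.

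**Figure D5:**
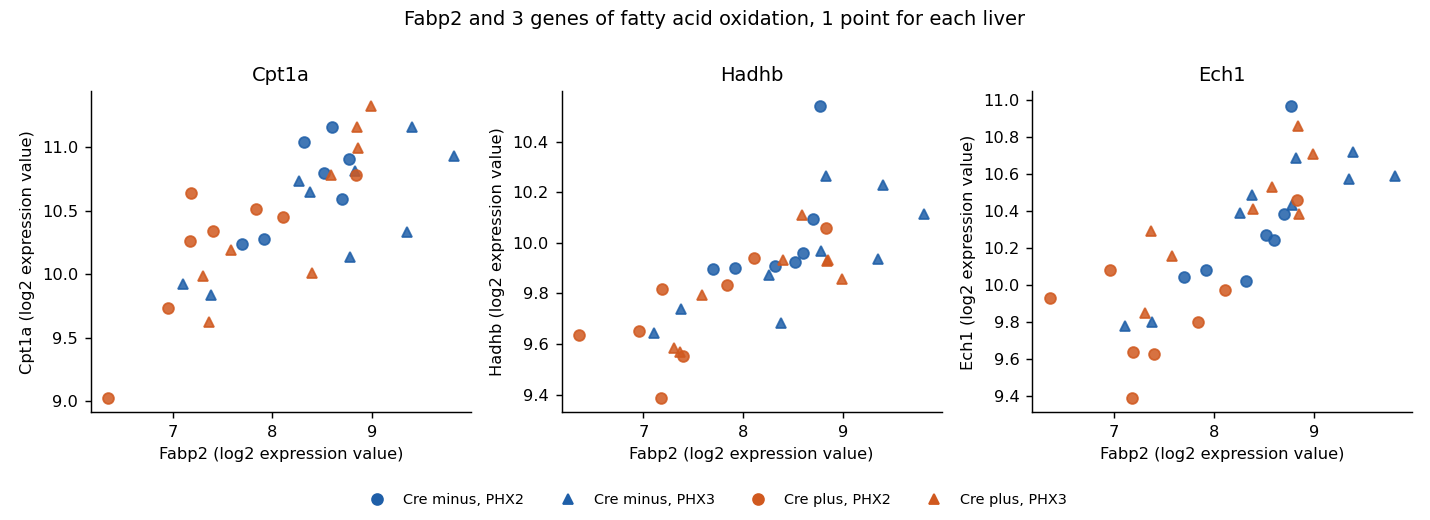
Log2 values of Cpt1a, Hadhb and Ech1 (vertical axes) against that of Fabp2 (horizontal axes), 1 point for each of the 32 livers, coloured by genotype with a symbol for the batch. The points rise together over the livers of both genotypes. The correlations, with the batch effect subtracted, were 0.79, 0.77 and 0.77.

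Fabp5, the epidermal form, lay between the 64.3rd and the 90.3rd percentile. At 40 h the Cre minus livers read 7.82, 7.47, 7.91 and 7.97, and the Cre plus livers read 7.25, 7.12, 7.17, 7.35 and 7.01. The groups did not overlap. The difference of -0.63 ± 0.25, 1.55-fold lower in Cre plus, had an unadjusted p of 0.0187 and an adjusted p of 0.168 and so was not called. It was -0.79 within PHX2 and -0.56 within PHX3, and it passed when the 40 h arrays were fitted alone (adjusted p = 0.0361). At 30 h the Cre minus livers ran from 7.04 to 8.69, while 6.69 to 7.70 was the range in Cre plus, a difference of -0.55 ± 0.29 that was not called. It was -0.22 without Cre minus 30 h A and -0.40 without the 3 poorly correlated arrays. The highest value of all was Cre minus 30 h A, and the lowest was Cre plus 30 h A. At 0 and 20 h the differences were -0.07 and 0.18. Its differences from 0 h ran from -0.34 to 0.24 over both genotypes, none called. That at 30 h in Cre plus was -0.31, and -0.05 without Cre plus 30 h A. Fabp5 was most like Lum (r = 0.69), a matrix proteoglycan, Egfr (0.69), the receptor of epidermal growth factor, and Aadat (0.68), an enzyme of amino acid breakdown.

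Fabp4, the adipocyte form, was close to the floor of the array, between the 30.2th and the 48.9th percentile, with values from 4.76 to 5.90. Its highest liver was Cre plus 40 h B. It read 4.76, 4.95, 5.14 and 4.93 in Cre minus at 0 h and 5.32, 5.16, 5.22 and 5.30 at 20 h, so that all 20 h livers lay above the 0 h livers. In Cre plus it read 4.91, 4.89, 4.82 and 5.002 at 0 h and 5.18, 5.17, 5.23 and 5.36 at 20 h, again without overlap. The differences were 0.31 ± 0.15 and 0.33 ± 0.15, or 1.24-fold and 1.26-fold, with adjusted p of 0.225 and 0.166. They were alike in both batches, at 0.32 and 0.30 in Cre minus and 0.39 and 0.27 in Cre plus for PHX2 and PHX3. At 30 and 40 h the differences from 0 h were 0.28 and 0.12 in Cre minus and 0.35 and 0.33 in Cre plus, where the last was 0.16 without Cre plus 40 h B. Between genotypes Fabp4 differed by -0.04, -0.02, 0.04 and 0.18 at 0, 20, 30 and 40 h, with none called. The 40 h value was -0.01 without that liver, and the 30 h value was 0.15 without the 3 poorly correlated arrays. The 95% interval of the 20 h genotype difference ran from -0.32 to 0.29.

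Other cells that make Fabp4 and Fabp5 were read through their markers. Adipoq, the defining adipocyte marker, did not pass the filter, and the other 4 adipocyte markers had no call in any comparison, with a mean of 6.00 to 6.42 in every liver. Of 10 endothelial markers none was called between genotypes, and their median genotype differences lay between 0.03 and 0.10. Against 0 h, Kdr was called lower at 20 h in both genotypes (-0.38 and -0.53), as was Eng (-0.40 and -0.54), and none was called higher. Over all probe sets 7.37% were called at 20 h in Cre minus and 9.07% in Cre plus. The signs of the list were mixed at 20 h. Cre minus livers had 2 of 10 positive differences, a median of -0.07 and a maximum of 0.60. Cre plus livers had 4 of 10 positive, a median of -0.10 and a maximum of 0.79. The part of endothelial cells in the Fabp4 values was not tested. At 40 h, where Fabp5 had its genotype difference, the Kupffer cell and macrophage mean ran from 7.30 to 7.94 in Cre minus and from 6.60 to 7.23 in Cre plus. Its part in the Fabp5 values was not tested. The genes most like Fabp4 were Tk1 (r = 0.80), the thymidine kinase of dividing cells, Gosr2 (0.76), a Golgi SNARE protein, and Ccdc86 (0.75). Within groups the correlations were 0.706, 0.675 and 0.637. Cre plus 40 h B, the highest liver for Fabp4, was also the highest for Tk1 (7.05), which was picked for its correlation over these same livers.

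For the remaining comparisons the calls can be read against the background. Between genotypes at 0 h no member was called by limma, none had an unadjusted p under 0.05, and 0.0649% of all probe sets were called. Against 0 h in Cre plus, no member was called at 20 h, where 9.07% of all probe sets were called, or at 30 h, where 9.89% were, and 2 members had an unadjusted p under 0.05 at each. At 40 h 1 of 6 was called and 9.66% of all. For the interaction no member was called at 20, 30 or 40 h, against 0, 0.0108 and 0.584% of all probe sets. The members with an unadjusted interaction p under 0.05 were Fabp7 at 20 h and bright Fabp1 at 40 h.

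In the order of the 8 group means, few neighbours stood apart by more than the larger of their SDs. For Fabp7 the order was Cre minus 20, 0, 30 and 40 h, then Cre plus 40, 0, 20 and 30 h, and only the first gap (1.02, from 6.89 ± 0.74 to 5.88 ± 0.20) was larger than the SD. For the bright Fabp1 probe set the order ran from Cre minus 40 h (12.59 ± 0.16) and Cre minus 0 h (12.54 ± 0.10) down to Cre plus 30 h (11.70 ± 0.74) and Cre plus 40 h (11.56 ± 0.24). The 3 lowest means were those of Cre plus after surgery. For Fabp2 the 3 highest were those of Cre minus after surgery, from 8.69 to 8.99, and the 2 lowest were both 0 h groups, at 7.53 ± 0.36 and 7.44 ± 0.48. Fabp5 was highest in Cre minus 40 h (7.79 ± 0.22) and lowest in Cre plus 40 h (7.18 ± 0.13), and Fabp4 was lowest in both 0 h groups. None of the 7 gaps between neighbours exceeded the larger SD for bright Fabp1, Fabp2, Fabp4 or Fabp5.

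Members differed in how they moved together. Over the 32 arrays, with the batch effect subtracted, bright Fabp1 and Fabp5 correlated most (r = 0.64, and 0.54 within groups). The probe sets of Fabp1 correlated at 0.51 and Fabp2 with Fabp7 at 0.42. Bright Fabp1 and Fabp4 had the lowest value (-0.36, and -0.06 within groups). Fabp4 and Fabp5, which both lie on chromosome 3, correlated at -0.11. The genes most like bright Fabp1 were Cyp4v3 (0.82), a fatty acid omega-hydroxylase, Fkbp2 (0.81), a prolyl isomerase of the endoplasmic reticulum, and Dio1 (0.79), which activates thyroid hormone. At 40 h Fkbp2 was called lower in Cre plus (-0.45 ± 0.10, adjusted p = 0.00518), while Cyp4v3 (-0.42 ± 0.18) and Dio1 (-1.35 ± 0.48) were not. The dim Fabp1 probe set was most like Rhoc (0.79), Snx17 (0.74) and Srxn1 (0.73). These correlations share arrays and describe these livers only.

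Other intracellular carriers of lipids and retinoids showed few calls. Of 10 such genes on the array 6 passed the filter, and Fabp9, Rbp2, Crabp1 and Crabp2 did not. Dbi, the acyl-CoA binding protein, was lower in Cre plus at 40 h (-0.38 ± 0.10, adjusted p = 0.03), without overlap. It was the only carrier called in the comparisons between genotypes or against 0 h. Between genotypes at 40 h, 5.35% of all probe sets were called. Fabp3, the heart form, had its largest genotype difference at 40 h (0.50 ± 0.35, adjusted p = 0.525), with Cre plus livers from 4.40 to 7.15. Fabp6, the ileal bile acid carrier, differed by -0.17 ± 0.07 there (adjusted p = 0.18). The uptake and activation list had 10 tested genes and no genotype call. Slc27a5, a fatty acid transporter and bile acyl-CoA synthetase, fell in Cre minus at 20, 30 and 40 h (by 0.52, 0.74 and 0.86 on the log2 scale) and in Cre plus at 40 h (by 0.73). Acsl5, an acyl-CoA synthetase, fell in Cre minus at 20 and 40 h (by 0.65 and 0.71) and in Cre plus at 40 h (by 0.70). Over all probe sets 7.37, 3.14 and 4.77% were called in Cre minus at 20, 30 and 40 h. In Cre plus at 40 h the share was 9.66%.

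Among 23 tested genes of fatty acid oxidation and PPAR-alpha targets, of which Fabp1 is itself a known target, 6 rose and 2 fell at 20 h in Cre minus. The median difference was 0.65, beside -0.03 over all probe sets, of which 7.37% were called. The largest rises were Cyp4a10 (3.55 ± 0.95), a fatty acid omega-hydroxylase, Ehhadh (1.75 ± 0.53) and Pex11a (1.64 ± 0.49), both peroxisomal, and Eci2 (1.18 ± 0.24), an enoyl-CoA isomerase. Hadh and Acads fell, by 0.71 and 0.40 on the log2 scale. Fabp1 at that time was at -0.43 and Fabp2 at 1.23, neither called. In Cre plus at 20 h, 3 of 23 rose and 1 fell, with a median of 0.25, and Eci2 (1.18), Angptl4 (1.08), an inhibitor of lipoprotein lipase, and Acadl (0.82) were the 3. In that comparison 9.07% of all probe sets were called. Between genotypes, 2 of 23 were called lower at 40 h, namely Hadh (-0.63 ± 0.16) and Acaa2 (-0.31 ± 0.08), both mitochondrial, and none at 0, 20 or 30 h. Over all probe sets 5.35% were called between genotypes at 40 h. The median genotype difference at 30 h was -0.44, with -0.34 within PHX2 and -0.24 within PHX3. At 40 h it was -0.12, from -0.59 in PHX2 to 0.17 in PHX3.

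Among 19 genes of lipid storage, synthesis and secretion, 3 rose and 3 fell at 20 h in Cre minus, and 4 rose and 2 fell in Cre plus. Of all probe sets, 7.37% and 9.07% were called in these 2 comparisons. The median differences of the list were 0.37 and 0.43. At 20 h the droplet proteins Cidec (3.66 in Cre minus and 3.75 in Cre plus) and Plin2 (1.68 and 1.75) rose, as did the apolipoprotein Apoa4 (2.49 and 1.63). Fasn and Elovl6, which make and lengthen fatty acids, fell in Cre minus by 1.53 and 1.51 on the log2 scale and were not called at 20 h in Cre plus. Between genotypes the only call was Pnpla2, the triglyceride lipase, higher in Cre plus at 40 h (1.09 ± 0.32, adjusted p = 0.045). That comparison had 5.35% of all probe sets called. Of 15 regulators none was called between genotypes at 0, 20, 30 or 40 h, and Pparg and Ppargc1a did not pass the filter. Over time Cebpb rose and Cebpa fell at 20 h in both genotypes, by 1.20 and -1.27 in Cre minus and 1.46 and -1.26 in Cre plus. Nr1d1, a clock repressor, was lower at 20 h too (-1.45 and -1.28), and the labels give no clock hour for the samples.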

How the data were processed

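Affymetrix arrays of 1 colour gave RNA levels for 32 mouse livers. The deposited log2 values come from the authors' RMA run, according to the submitters' processing notes. The sources used here give neither the RMA version nor joint or separate normalization of the batches. Base 2 was taken from the values' range, 2.30 to 14.12. The number of arrays limits the precision. Probe sets were named from the platform annotation, with symbols updated through gene IDs in RefSeq. Those above the 30th percentile of 3 or more arrays were tested. The model (limma version 3.58.1, lmFit then eBayes, R version 4.3.3, 2-sided tests) had 8 groups and the batch as terms over 32 arrays. Adjusted p (Benjamini-Hochberg) were taken within each comparison over 9249 probe sets. The fit was tested on simulated data. The members and lists were chosen with earlier results of these data known. Named were all member probe sets, Rps6, up to 4 called genes with the largest differences per list and comparison, the 3 genes most correlated with each member, and markers with the largest genotype differences. A gene entered a list by its brightest probe set. Fabp3, Fabp6, Mpeg1, Lgals4, Kdr and Eng, and Elovl6, Hadh and Acads at 20 h, were named after their values were seen. Alternatives were the filter, normalization, batch term, each batch alone, a replicate block, smaller fits, array weights, variance settings and leaving out arrays.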

Additional observations from a re-analysis of the deposited data

How the results depend on the processing

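No called member test changed direction under any alternative run. Leaving out 1 array gave 2 genotype calls each time, 1 to 3 in Cre minus over time, 0 to 2 in Cre plus and 0 interaction calls. With PHX2 alone, 0 genotype tests, 0 time tests in Cre minus and 0 in Cre plus were called. Cre minus at 40 h then holds 1 array, as does Cre plus at 30 h in PHX3, and that array is assumed to vary like the others. With PHX3 alone the time tests called were 2 in Cre minus and 4 in Cre plus. Array weights gave 4 genotype, 3 Cre minus, 6 Cre plus and 1 interaction call. They also raised the calls over all 9249 probe sets. Between genotypes at 30 h these went from 26 to 2436, and in Cre plus at 30 h from 915 to 3592. For the interaction at 30 h they went from 1 to 1587. Fitting 1 genotype alone gave 5 calls in Cre minus and 0 in Cre plus. The filter at the 50th percentile gave 2 calls in Cre minus, and leaving out the 3 arrays with r under 0.95 gave 2 in Cre plus. Deviations of same-letter livers from their group and batch means had a median correlation of -0.04, beside 0.002 for different letters. Of 105 same-letter pairs, 31 correlated over 0.1. This does not settle whether the letters mark matched livers. With the letter as a replicate block, 2 time tests were called in Cre minus, with Fabp2 at 30 h added (adjusted p = 0.0494), and no other member call changed. The causes were not tested. Fabp4 and the dim Fabp1 probe set lie near background, which limits what a small difference shows. Fabp7 in Cre plus livers lay at percentiles like those of Fabp4, so the size of its differences is uncertain too.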
